A study of Mus musculus with 8 samples.

Results

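The neutrophil surface, granule and oxidase genes are 35 genes, chosen by name for their known role, with earlier results of these data known, out of 29608 gene names on the array. They were read by 41 probes, and 5 of the genes had several, of which the brightest is given. RNA of forepaw skin, taken 30 or 60 min after the footpad was injected intradermally, was measured on 8 Agilent whole-genome arrays of 2 colours, Cy3 and Cy5. The mice were males aged 9 to 10 weeks, either C57BL/6 wild type (WT) or Adcyap1r1 -/- mice (PAC1R KO), which lack the receptor PAC1R for the neuropeptide PACAP. One skin sample of each pair had received 5 µL of vehicle, which was saline with 0.1% BSA, and the other the same volume with 1e-07 mol/L PACAP. Both groups of animals had been put under anaesthesia by injected agents, so the anaesthetic and the needle puncture are shared by vehicle and PACAP samples. For each genotype 6 mice were injected, and which of them entered each RNA sample was not stated.

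PACAP was set beside vehicle in 4 comparisons, named by genotype and minutes as WT30, WT60, KO30 and KO60, so that the 8 RNA samples are a vehicle and a PACAP sample of each. Each comparison was hybridised on 2 arrays with swapped dyes, and the pair was counted as 1 replicate, since both arrays hold the same RNA. No comparison therefore had a replicate between animals, and the spread between the 2 arrays is technical. The WT arrays shared 1 slide and the KO arrays another, which means that slide and genotype cannot be told apart. The deleted gene, Adcyap1r1, had a log2 level of 7.91 to 8.56 in the samples labelled KO and 8.26 to 8.76 in WT, so its probe was read in both genotypes, and the genotype of a sample is that of its label only. The share of spots well above background was 78.6% to 94.5% in red and 54.0% to 65.3% in green. Over the 30350 probes that each array read well above background with 1 dye or both, the ratios of WT30 and KO30 correlated at -0.42, while the direction of each ratio is that of the dyes in the labels.

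Neutrophils are made in the bone marrow, where precursors fill their granules before the mature cell enters the blood. Primary granules are made first and hold elastase, myeloperoxidase, proteinase 3 and cathepsin G, then secondary granules with lactoferrin and cathelicidin, and last tertiary granules with gelatinase. The mature cell largely stops making these RNAs and carries receptors for bacterial peptides, antibodies and fungal or dead-cell sugars instead, which guide it into injured tissue. There, the NADPH oxidase turns oxygen into superoxide inside the phagosome. Skin at rest holds few neutrophils, and several of the genes are also used by macrophages, mast cells or keratinocytes.

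A ratio is PACAP over vehicle as the Feature Extraction software gave it, averaged over both arrays. A gene was counted as up-regulated when that mean reached 2-fold, or as down-regulated when it was 0.5-fold at most, provided that both arrays pointed the same way and each had a Feature Extraction p under 0.01. That p speaks of 1 array and not of animals. In KO30 9 of the 35 genes were up-regulated, beside 0.601% of all 39426 probes with a ratio on both arrays. In KO60 this was 1 gene, beside 0.142% of probes, and in WT it was 0 genes at 30 min, beside 0.254%, and 0 at 60 min, beside 0.583%. None of the 35 was down-regulated in any comparison, where the share of all probes was 0.0964% in WT30 and 0.107% in KO30, and 0.109% in WT60 and 0.15% in KO60. The 9 genes were Fpr2, Clec4d, Clec4e, Mmp9, Trem3, Hp, Lcn2, Fpr1 and Fcgr4. Of these, Fpr2, Hp, Lcn2, Mmp9, Clec4d and Fcgr4 were picked by the study on these same arrays, and Fpr1, Clec4e and Trem3 were not named by it. All 35 genes were chosen with earlier results of these data known, so no part of the count of 9 is independent evidence.

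**Figure D1:**
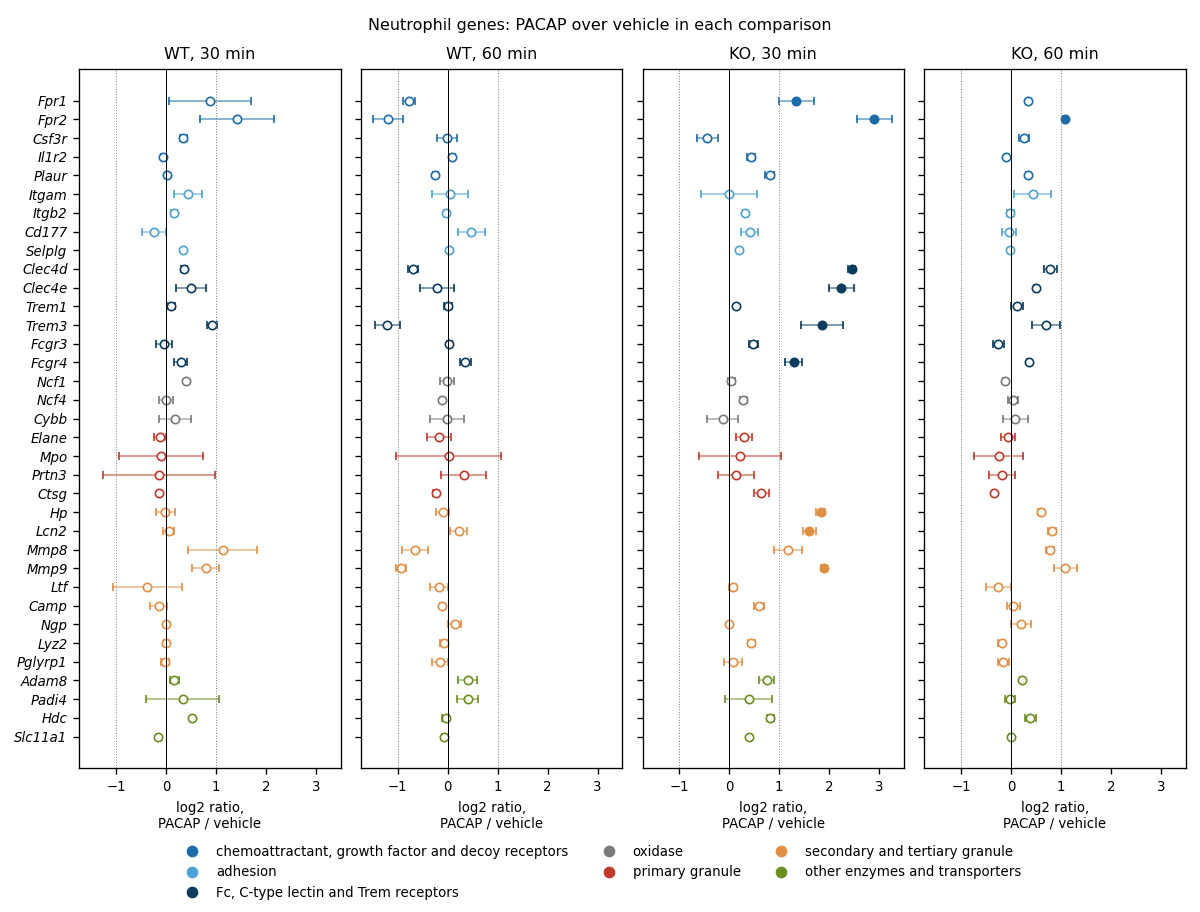
Log2 ratio of PACAP over vehicle (x axis) of each of the 35 genes (y axis) in the 4 comparisons. Points are means of the dye-swap arrays, ticks joined by a line are the 2 arrays, filled points passed the 2-fold rule, and dotted lines mark 2-fold. Filled points lie in KO30 for 9 genes and in KO60 for Fpr2, and in neither WT panel.

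The median ratio of the 35 genes was 1.34-fold in KO30, with 31 of them above 1-fold, against 42.7% of all probes and a median log2 ratio of 0 over all probes. In KO60 the median was 1.06-fold with 20 above 1-fold, against 44.5% of probes. In WT it was 1.07-fold at 30 min with 20 above, against 33.6%, and 0.974-fold at 60 min with 13 above, against 38.5%. These shares include dim probes whose ratio was set to 0 and cannot lie above 1-fold, so they are no like-for-like background. Over the 30350 probes well above background the median log2 ratio was -0.013 in KO30 and 0.0047 in KO60. It was -0.048 in WT30 and -0.0097 in WT60. The share of those probes above 1-fold is not given. Between the 2 arrays of a comparison the median gap over the 35 genes was 0.24 in WT30, 0.26 in KO30, 0.28 in WT60 and 0.21 in KO60 on the log2 scale. In skin as a whole, more neutrophils and more RNA per neutrophil cannot be told apart.

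The receptors for formylated peptides, by which neutrophils find bacteria and damaged mitochondria, lie next to each other on chromosome 17. Fpr2 (NM_008039) has its probe on the plus strand of that chromosome, from 18030540 to 18030599 in the mm9 build used for all probe positions here. Its log2 level was 6.29 with vehicle and 6.52 with PACAP in WT30, 6.58 and 6.28 in WT60, 6.20 and 7.00 in KO30, and 6.37 and 6.79 in KO60. The PACAP sample of KO30 was the highest of the 8 and the vehicle sample beside it the lowest. The ratio was 7.47-fold there, the arrays giving 9.56-fold and 5.84-fold, and 2.12-fold in KO60, with 2.06-fold and 2.18-fold. With normexp background correction the value in KO60 was 1.34-fold and no longer passed the rule. Its values were 2.68-fold in WT30 and 0.437-fold in WT60, and neither passed the rule, since 1 array of each had a p over 0.01. The vehicle signal of Fpr2 in KO30 exceeded background clearly on 1 array only, so the 7.47-fold rests in part on a signal near background.

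Fpr1 (NM_013521), on the minus strand from 18013609 to 18013668, encodes a receptor of the same family. Its level was 6.31 with vehicle and 6.46 with PACAP in WT30, 6.76 and 6.52 in WT60, 6.34 and 6.81 in KO30, and 6.89 and 7.10 in KO60. Its highest level was thus in KO60. The ratio was 2.53-fold in KO30, the arrays giving 1.98-fold and 3.24-fold, and 1.27-fold in KO60. For WT the ratio was 0.588-fold in WT60 and 1.83-fold in WT30, where the arrays gave 3.24-fold and 1.04-fold, each sample exceeded background on 1 array only, and normexp gave 1.11-fold.

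Clec4d and Clec4e are C-type lectin receptors of myeloid cells that bind glycolipids of mycobacteria and fungi and signal through the same Fc receptor chain. Clec4d (NM_010819), on chromosome 6 from 123224788 to 123224847 on the plus strand, was well above background in every channel. Its level was 8.37 with vehicle and 8.70 with PACAP in WT30, 9.27 and 8.73 in WT60, 8.22 and 10.44 in KO30, and 9.61 and 10.31 in KO60. Both PACAP samples of KO were above all other samples. The ratio was 5.46-fold in KO30, the arrays giving 5.21-fold and 5.73-fold, 1.72-fold in KO60, 1.29-fold in WT30 and 0.616-fold in WT60. Between 30 and 60 min the vehicle sample of KO itself went from 8.22 to 9.61, so the smaller ratio at 60 min came with a higher vehicle level and a similar PACAP level.

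Clec4e (NM_019948), on the minus strand from 123232878 to 123232937, had levels of 6.47 and 6.59 in WT30, 6.73 and 6.70 in WT60, 6.37 and 7.33 in KO30, and 7.32 and 7.70 in KO60. Here the vehicle sample of KO60 was as high as the PACAP sample of KO30. Its ratio was 4.73-fold in KO30, the arrays giving 4.00-fold and 5.60-fold, and 1.42-fold in KO60. For WT it was 1.42-fold in WT30 and 0.862-fold in WT60.

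Trem3 (NM_021407) encodes a receptor that amplifies inflammatory signalling in myeloid cells. On chromosome 17 from 48397990 to 48398049, its level was 6.19 with vehicle and 6.31 with PACAP in WT30, 6.31 and 6.22 in WT60, 6.13 and 6.51 in KO30, and 6.20 and 6.42 in KO60. The ratio was 3.63-fold in KO30, the arrays giving 2.71-fold and 4.86-fold, 1.63-fold in KO60, 1.90-fold in WT30 and 0.434-fold in WT60. The value in WT60 did not pass the rule, and each sample there exceeded background clearly on 1 array only.

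Fcgr4 (NM_144559), an activating receptor for IgG, lies on chromosome 1 from 172959738 to 172959797. Its level was 7.09 with vehicle and 7.25 with PACAP in WT30, 7.52 and 7.77 in WT60, 6.98 and 7.74 in KO30, and 7.63 and 7.91 in KO60. It was above vehicle in all 4 comparisons, at 2.44-fold in KO30, the arrays giving 2.74-fold and 2.17-fold, 1.28-fold in KO60, 1.22-fold in WT30 and 1.27-fold in WT60. Trem1 and Fcgr3, the neighbours of Trem3 and Fcgr4, did not pass the rule, at 1.10-fold and 1.39-fold in KO30.

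Hp encodes haptoglobin, which binds free haemoglobin and is made by the liver as well as stored in neutrophil granules. Hp (NM_001329965), on chromosome 8 from 112099045 to 112099104 on the minus strand, was at a level of 10.09 with vehicle and 10.10 with PACAP in WT30, 10.41 and 10.28 in WT60, 10.30 and 12.06 in KO30, and 11.41 and 12.00 in KO60. Its 3 highest samples were both PACAP samples of KO and the KO vehicle sample at 60 min. The ratio was 3.55-fold in KO30, the arrays giving 3.35-fold and 3.76-fold, and 1.51-fold in KO60, against 0.989-fold and 0.931-fold in WT. Beside it, 10 hepatocyte genes had a median of 1.26-fold in KO30 with 0 past the rule, and 0.316-fold in WT60 with 6 past the rule downwards. Their part in the Hp values was not tested.

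Lcn2 encodes lipocalin 2, which withholds iron from bacteria and is made by keratinocytes as well. Lcn2 (NM_008491), on chromosome 2 from 32240199 to 32240258 on the minus strand, was at a level of 8.10 with vehicle and 8.18 with PACAP in WT30, 8.65 and 8.85 in WT60, 8.30 and 9.71 in KO30, and 8.81 and 9.53 in KO60. The ratio was 3.03-fold in KO30, the arrays giving 3.32-fold and 2.77-fold, and 1.77-fold in KO60, against 1.04-fold and 1.16-fold in WT. A list of 10 epidermal wound response genes, among them Krt6a, Krt16 and Slpi, had 4 members past the rule upwards in KO30, 6 in KO60, 0 in WT30 and 4 in WT60. The part of these keratinocyte genes in the Lcn2 values was not tested.

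The gelatinase of tertiary granules, Mmp9 (NM_013599), has a probe that the array repeats on 10 spots, on chromosome 2 from 164780620 to 164780679. Its level was 6.20 with vehicle and 6.32 with PACAP in WT30, 6.22 and 6.10 in WT60, 6.10 and 6.44 in KO30, and 6.13 and 6.34 in KO60. The ratio was 3.70-fold in KO30, the arrays giving 3.82-fold and 3.59-fold, and 2.12-fold in KO60, where 1 array had a p over 0.01. Its values were 1.73-fold in WT30 and 0.523-fold in WT60. Mmp8, the neutrophil collagenase, was the gene just outside the rule in KO30, at 2.24-fold with a p of 0.077 and 0.14 on the arrays, and it was 1.71-fold in KO60, 2.19-fold in WT30 and 0.636-fold in WT60.

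**Figure D2:**
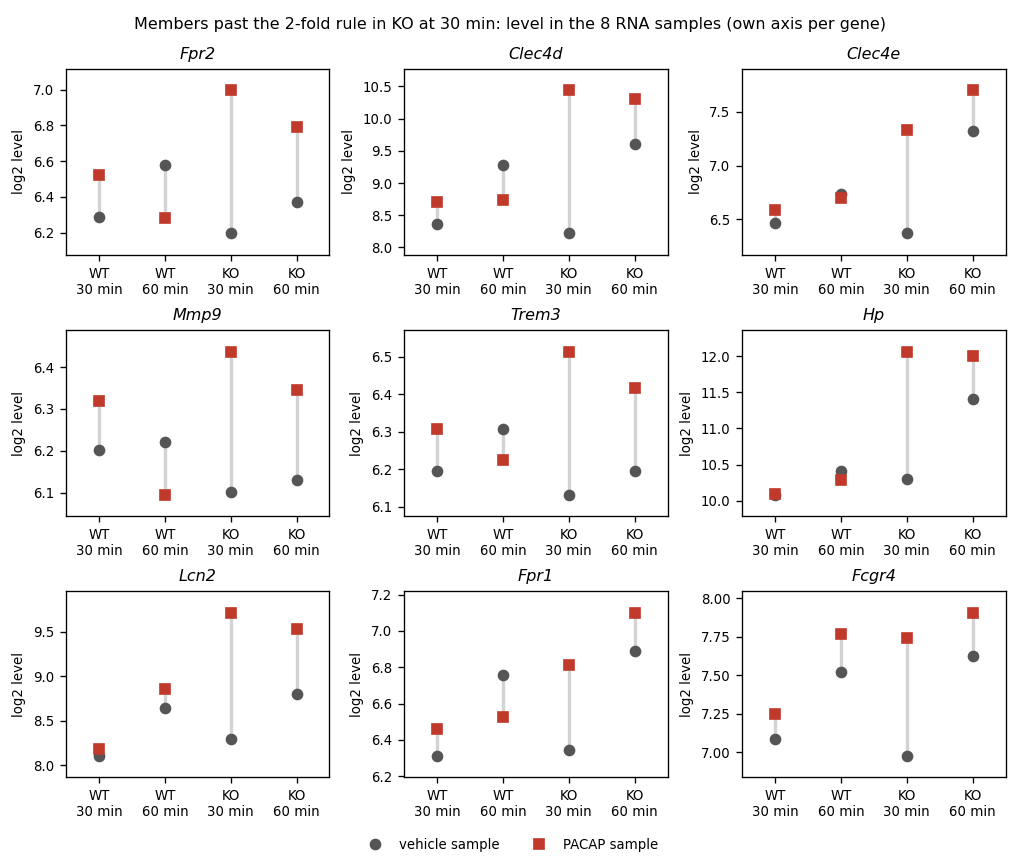
Log2 level (y axis, its own for each gene) of the 9 genes past the 2-fold rule in KO30, in the vehicle samples (circles) and PACAP samples (squares) of the 4 comparisons (x axis). Each point is 1 RNA sample, averaged over the dye swap. The KO sample with PACAP at 30 min was the highest of the 8 for 6 of the 9 genes, and 7 of the 9 had a PACAP level under the vehicle level in WT60.

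Across the 9 genes the ratio was between 2.44-fold and 7.47-fold in KO30, and smaller for each of the 9 in KO60, between 1.27-fold and 2.12-fold. In WT30 it lay between 0.989-fold and 2.68-fold with 8 of 9 above 1-fold, and in WT60 between 0.434-fold and 1.27-fold with 7 of 9 below. The vehicle samples had higher levels at 60 than at 30 min for all 9 in both genotypes. These 9 were picked by their ratio in KO30, so the ranges are given as a description.

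The size of most of these ratios depended on how the background was handled. After normexp correction with an offset of 50 and loess, which shrinks ratios of dim probes, the 9 genes lay between 1.26-fold and 4.67-fold in KO30, all above 1-fold, and 3 of them reached 2-fold. These were Clec4d at 4.67-fold, Hp at 3.40-fold and Lcn2 at 2.66-fold, which are bright probes. Clec4e was 1.94-fold, Fpr2 1.74-fold, Fcgr4 1.70-fold, Fpr1 1.38-fold, Trem3 1.30-fold and Mmp9 1.26-fold. Of the 9, Fpr2, Mmp9 and Trem3 were the ones whose vehicle signal in KO30 was well above background on 1 array only. The levels given here use the same correction, so level differences of dim genes are smaller than their ratios.

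**Figure D3:**
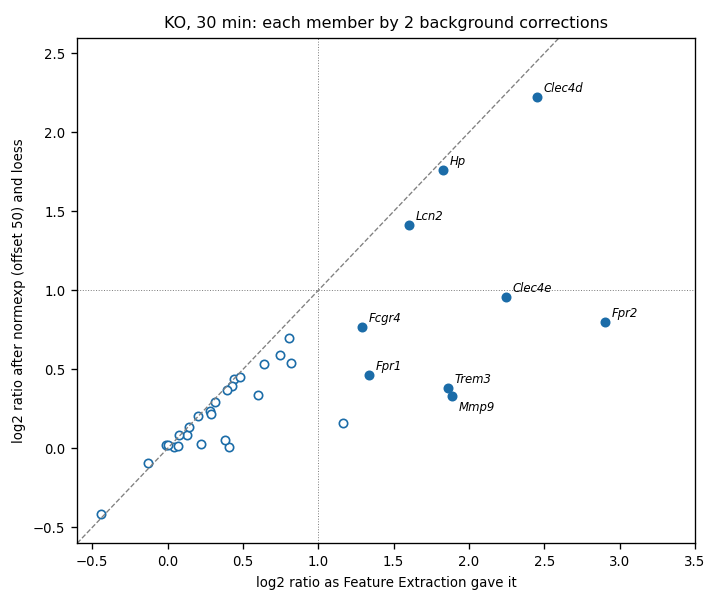
Log2 ratio of PACAP over vehicle in KO30 for the 35 genes, as Feature Extraction gave it (x axis) and after normexp with an offset of 50 and loess (y axis). Filled points are the 9 genes past the 2-fold rule, the dashed line marks equal values and the dotted lines 2-fold. Clec4d, Hp and Lcn2 lie near the dashed line and above 2-fold on both axes, while Fpr2, Trem3 and Mmp9 lie far below the dashed line.

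The 250 bases before the transcription start are shown for genes of both kinds, to set receptors and a granule gene that were past the rule beside granule genes that were not. Sequences are those of RefSeq on GRCm38.p6, and are written 5′ to 3′ along the gene's strand. In the promoter set used, 29 of the 35 genes were matched. Capitals mark the letters GAGGAA, the core bound by the myeloid factor PU.1, TTGCNNAA, a core of C/EBP factors, and TATAAA, the TATA box, each on either strand, so GAGGAA on the other strand reads TTCCTC. None of the marked letters overlap. They lie at chr6:123261857-123262106 on the plus strand for Clec4d, chr6:123289872-123290121 on the minus strand for Clec4e, chr2:32387740-32387989 on the minus strand for Lcn2, chr10:79886062-79886311 on the plus strand for Elane, and chr9:110419558-110419807 on the plus strand for Ngp.
Clec4d: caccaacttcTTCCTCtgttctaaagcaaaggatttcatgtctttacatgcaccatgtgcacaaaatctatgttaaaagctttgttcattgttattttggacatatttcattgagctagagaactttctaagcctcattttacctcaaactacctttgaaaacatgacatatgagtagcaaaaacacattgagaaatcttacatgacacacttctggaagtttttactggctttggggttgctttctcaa
Clec4e: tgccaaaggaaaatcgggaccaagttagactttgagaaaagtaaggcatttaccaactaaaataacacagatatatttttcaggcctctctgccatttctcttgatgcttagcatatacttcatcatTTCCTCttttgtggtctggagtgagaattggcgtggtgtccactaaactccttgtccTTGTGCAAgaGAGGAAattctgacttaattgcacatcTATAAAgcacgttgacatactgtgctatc
Lcn2: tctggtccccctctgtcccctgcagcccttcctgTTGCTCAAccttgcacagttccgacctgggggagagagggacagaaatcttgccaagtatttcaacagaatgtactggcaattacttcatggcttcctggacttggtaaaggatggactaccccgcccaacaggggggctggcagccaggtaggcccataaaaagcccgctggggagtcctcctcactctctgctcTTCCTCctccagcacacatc
Elane: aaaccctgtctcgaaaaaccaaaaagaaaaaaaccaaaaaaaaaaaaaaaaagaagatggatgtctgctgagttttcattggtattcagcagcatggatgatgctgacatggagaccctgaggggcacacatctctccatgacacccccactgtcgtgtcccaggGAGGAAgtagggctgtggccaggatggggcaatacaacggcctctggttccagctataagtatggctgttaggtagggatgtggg
Ngp: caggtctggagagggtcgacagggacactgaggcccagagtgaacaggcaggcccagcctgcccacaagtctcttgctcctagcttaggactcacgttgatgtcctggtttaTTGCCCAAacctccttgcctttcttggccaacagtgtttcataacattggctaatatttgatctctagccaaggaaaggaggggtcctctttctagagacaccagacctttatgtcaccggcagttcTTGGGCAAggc

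Of the 29 promoters, 19 held GAGGAA, against 25.9% of the 27025 genes with a promoter. Among 12 receptor and adhesion genes with a promoter these were 10, and among the 7 granule genes of the precursors 5, so the letters were found in both kinds. TTGCNNAA was in 8 of 29, against 10.8% of genes, in 3 of the 12 and in 2 of the 7. TATAAA was in 6 of 29, against 14.3%. The cAMP response element TGACGTCA, bound by CREB, which PAC1R signalling can activate, was in 0 of 29, against 1.77% of genes. A match describes letters in this window and does not show that a factor binds there.

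Receptors and adhesion molecules of the mature cell were then set beside the granule genes of its precursors. The 15 surface genes had a median of 1.39-fold in KO30 with 6 past the rule, 1.26-fold in KO60 with 1, 1.26-fold in WT30 and 0.989-fold in WT60, both with 0. The 7 precursor granule genes, Elane, Mpo, Prtn3, Ctsg, Ltf, Camp and Ngp, had medians of 1.16-fold, 0.882-fold, 0.911-fold and 0.921-fold in the same order, with 0 past the rule in each. Their range over all 4 comparisons was 0.773-fold to 1.56-fold. The 9 secondary and tertiary granule genes, which include Ltf, Camp and Ngp, had a median of 1.51-fold in KO30. There, 3 of these 9 were past the rule, Hp, Lcn2 and Mmp9. Their medians were 1.15-fold in KO60, 0.996-fold in WT30 and 0.921-fold in WT60, with 0 past the rule in each. Whether the surface and granule genes differed from each other was not tested.

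Among the primary granule genes, Elane had log2 levels of 7.67 with vehicle and 7.61 with PACAP in WT30, 7.87 and 7.77 in WT60, 7.87 and 8.09 in KO30, and 8.02 and 7.98 in KO60. Its ratio lay between 0.884-fold and 1.22-fold, and all 8 samples lay between 7.61 and 8.09. Ctsg, which mast cells also make, had levels of 7.96 and 7.90 in WT30, 8.24 and 8.08 in WT60, 7.88 and 8.41 in KO30, and 8.41 and 8.17 in KO60. With 1.56-fold in KO30 and 0.791-fold in KO60 it had the widest range of the 4 genes. Beside it, the 8 mast cell genes had medians of 1.20-fold in KO30 and 0.994-fold in KO60 with 0 past the rule. In KO30, 6 of the 8 were above 1-fold and 2 below. Cma1 was 1.61-fold in KO30 and 0.857-fold in KO60, and Fcer1a 1.59-fold and 0.830-fold, while Kit was 0.733-fold and 1.05-fold. The part of mast cells in the Ctsg values was not tested.

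Mpo had levels of 6.24 and 6.22 in WT30, 6.37 and 6.41 in WT60, 6.31 and 6.34 in KO30, and 6.51 and 6.49 in KO60. Prtn3 had levels of 6.44 and 6.37 in WT30, 6.75 and 6.76 in WT60, 6.54 and 6.62 in KO30, and 6.88 and 6.80 in KO60. For both genes the samples at 60 min lay above those at 30 min of the same genotype and treatment. The ratio of Mpo lay between 0.845-fold and 1.16-fold and that of Prtn3 between 0.882-fold and 1.25-fold. Their arrays disagreed with each other, since Prtn3 in WT30 was 1.97-fold on one and 0.418-fold on the other, and Mpo in WT60 0.491-fold and 2.09-fold.

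In the secondary granule, Camp, the cathelicidin, had levels of 6.90 and 6.83 in WT30, 6.99 and 6.93 in WT60, 7.12 and 7.46 in KO30, and 7.01 and 7.03 in KO60. The PACAP sample of KO30 was the highest, at 1.51-fold over vehicle. Ltf, lactoferrin, stayed between 6.01 and 6.19 in all 8 samples, each of which exceeded background on 1 array only. Ngp was the dimmest of the 35, well above background in 7 of 16 channels, with levels from 5.89 to 6.00. It was the gene left out of the fits across probes, which the other 34 entered, and its PACAP sample in WT30 was above background on neither array.

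The NADPH oxidase genes code for the membrane subunit, Cybb, and the cytosolic subunits, Ncf1 and Ncf4. Ncf1 had levels of 7.61 with vehicle and 7.89 with PACAP in WT30, 7.94 and 7.98 in WT60, 7.42 and 7.43 in KO30, and 8.16 and 8.09 in KO60. Ncf4 had levels of 8.10 and 8.11 in WT30, 8.16 and 8.11 in WT60, 8.22 and 8.46 in KO30, and 8.44 and 8.48 in KO60. Cybb had levels of 7.11 and 7.21, 7.07 and 7.08, 6.87 and 6.78, and 6.97 and 7.03 in the same order. The ratios of these 3 genes lay between 0.914-fold and 1.31-fold in the 4 comparisons and none passed the rule. All 3 were well above background in every channel, and macrophages use this enzyme as well.

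**Figure D4:**
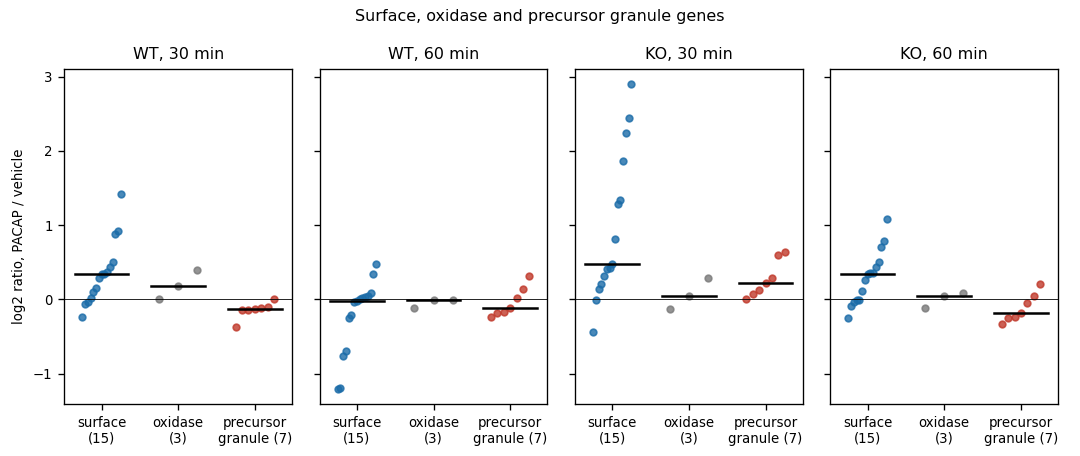
Log2 ratio of PACAP over vehicle (y axis) of the 15 surface genes, the 3 oxidase genes and the 7 precursor granule genes (x axis) in the 4 comparisons. Each point is 1 gene, sorted by value, and bars are medians. Of the genes plotted, those above 2-fold (a log2 ratio of 1) are all surface genes, and the 7 precursor granule genes stay between 0.773-fold and 1.56-fold. The other secondary and tertiary granule genes, among them Hp, Lcn2 and Mmp9, are not plotted.

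The other surface genes did not pass the rule in any comparison. In KO30 these 9 lay between 0.737-fold for Csf3r, the receptor for G-CSF, and 1.75-fold for Plaur, the urokinase receptor, with Il1r2, a decoy receptor for interleukin 1, at 1.34-fold. The adhesion genes Itgam, Itgb2 and Selplg were 0.994-fold, 1.24-fold and 1.15-fold there. Itgam had 3 probes, which gave 0.994-fold, 1.18-fold and 1.12-fold, and on the arrays of the brightest it was 1.46-fold and 0.677-fold. Cd177, a marker of neutrophil subsets, was near background, between 0.849-fold and 1.39-fold over the 4 comparisons. Of the remaining granule genes, Lyz2, which macrophages make in large amounts, was 1.36-fold in KO30 and 0.881-fold in KO60. Pglyrp1 lay between 0.899-fold and 1.05-fold in the 4 comparisons.

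Enzymes and transporters of the mature cell had no gene past the rule. In KO30 Hdc, which makes histamine, was 1.77-fold, Adam8, a sheddase, 1.68-fold, Slc11a1, a metal transporter of phagosomes, 1.32-fold and Padi4, which citrullinates histones, 1.31-fold. In KO60 they were 1.30-fold, 1.17-fold, 0.995-fold and 0.987-fold in the same order. Hdc was the gene with the largest ratio of these 4 in WT30, at 1.43-fold.

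A change shared by all 4 comparisons was tested with limma over the 30350 probes, each comparison being 1 value. Of the 34 genes in this fit, 0 passed an adjusted p of 0.05, and 0 of all probes, that is 0%. At an unadjusted p under 0.05 there were 5, Adam8, Fcgr4, Hdc, Lcn2 and Padi4, all above vehicle, beside 2.23% of probes. Lcn2 had the largest mean of the 5, with 0.67 on the log2 scale (SE 0.25, n = 4, adjusted p = 1 from limma). Fcgr4 had a mean of 0.57 (SE 0.18, n = 4, adjusted p = 1 from limma), and it was above vehicle in 4 of 4 comparisons.

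The difference in PACAP ratio between KO and WT was tested with the ratios of both times standing for each genotype. Without a term for time, 0 of the 34 genes and 0 of all probes passed. At an unadjusted p under 0.05 there were 5 genes, Lcn2, Hp, Clec4d, Plaur and Mmp9, all higher in KO, beside 3.2% of probes. Lcn2 differed by 1.08 on the log2 scale (SE 0.30, adjusted p = 0.84 from limma) and Clec4d by 1.78 (SE 0.60, adjusted p = 0.84 from limma). When time entered as a covariate, comparing the genotypes within 30 and within 60 min, Fpr2 and Clec4d passed, beside 0.056% of probes, and 10 of the 34 had an unadjusted p under 0.05, all higher in KO, beside 3.12%. Fpr2 then differed by 1.88 (SE 0.32, 95% interval 1.21 to 2.55, adjusted p = 0.024 from limma) and Clec4d by 1.78 (SE 0.32, 95% interval 1.13 to 2.44, adjusted p = 0.029 from limma). After normexp and loess, an alternative chosen after seeing the data, neither passed in the fit with time, where Fpr2 differed by 0.64 (SE 0.11) and Clec4d by 1.56 (SE 0.22). Fpr2 is near background, above it in 12 of 16 channels. Without time and without the WT comparison at 30 min 7 of the 34 passed, beside 0.56% of probes, but WT is then 1 value and the spread within a genotype comes from the 2 KO values alone. Without the one at 60 min 0 did, beside 0.273%, and without either KO comparison 0 did. Over the 2 times, 19 of the 35 genes had a higher ratio in KO than in WT at both, as did 26.9% of the tested probes, and these were 9 of the 15 surface genes and 2 of the 7 precursor granule genes.

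The level of the 34 genes in vehicle samples was higher at 60 than at 30 min for 26 in WT, beside 48.4% of probes, and for 30 in KO, beside 44.6%. In both genotypes at once it was higher for 25, beside 32.2%, among them 12 of 15 surface genes and 4 of 6 precursor granule genes. In PACAP samples the level was higher at 60 min for 19 in WT, beside 51.5%, and for 22 in KO, beside 45.3%. In the vehicle samples alone, the fit of time found 14 of 34 at an unadjusted p under 0.05, beside 24.4% of probes, and 0 past an adjusted p of 0.05. Over all 8 RNA samples Prtn3 was 0.31 higher at 60 min (SE 0.05, adjusted p = 0.026 from limma) and Mpo 0.17 higher (SE 0.04, adjusted p = 0.047 from limma), where 9.33% of probes passed. At an unadjusted p under 0.05 there were 11 of the 34, beside 29.6%. That fit took the pair of samples on the same arrays as a random block, and on data simulated for its genotype term, the one simulated, it gave 59 false calls. Leaving out the KO pair at 30 min, 10 of the 34 passed for time, where 36.4% of all probes did, and leaving out any other pair 0 did. With the mean of each pair as 1 value and no pair left out, a setting chosen after the simulation, 0 of the 34 passed. With these pair means 8 had an unadjusted p under 0.05, beside 17.7% of probes, and Prtn3 had an adjusted p of 0.23 from limma.

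Between the genotypes, PACAP samples had a higher level in KO for 24 of the 34 genes at 30 min, beside 48.1% of probes, and for 29 at 60 min, beside 45.4%. Vehicle samples had a higher level in KO for 11 at 30 min, beside 52.3%, and for 25 at 60 min, beside 44.9%. The vehicle samples alone gave 1 of 34 at an unadjusted p under 0.05, beside 14.3%, and 0 past the adjusted threshold. Over all 8 samples Pglyrp1, a peptidoglycan-binding protein, was lower in KO by 0.41, written as -0.41 (SE 0.06, adjusted p = 0.038 from limma), where 4.2% of probes passed. Its level was 12.77 and 12.76 in WT30, 12.67 and 12.51 in WT60, 12.29 and 12.38 in KO30, and 12.28 and 12.10 in KO60. At an unadjusted p under 0.05 there were 9 of the 34, beside 26.1%. With single samples as values, Pglyrp1 did not pass without the WT pair at 30 min, the WT pair at 60 min or the KO pair at 60 min, while 7 of the 34 passed without the KO pair at 30 min, beside 9.87% of probes. With the mean of each pair as 1 value and no pair left out, the adjusted p of Pglyrp1 was 0.40 from limma. With these pair means 8 of 34 had an unadjusted p under 0.05, beside 12.4% of probes. The levels of a probe differ between slides for technical reasons too, and slide and genotype cannot be told apart.

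Other genes of the neutrophil were taken from a list of 38 that shares no gene with the 35. In KO30 7 of them were up-regulated, with a median of 1.30-fold, and in KO60 3, with a median of 1.03-fold. In WT these were 1 at each time, with medians of 1.03-fold and 0.914-fold. The calcium-binding alarmins S100a8 and S100a9, which neutrophils and wounded keratinocytes make, were 4.13-fold and 4.01-fold in KO30, 4.56-fold and 3.57-fold in KO60, 1.67-fold and 1.93-fold in WT30, and 1.87-fold and 1.47-fold in WT60. Il1b, the cytokine of activated myeloid cells, was 4.76-fold in KO30, 2.10-fold in WT30, 1.46-fold in KO60 and 0.574-fold in WT60. The neutrophil marker Ly6g was 1.92-fold in KO30 and 0.924-fold in KO60, without passing the rule, and the chemokine receptor Cxcr2 1.14-fold and 1.10-fold. Chil3 was the largest of the list in KO30, at 8.86-fold, and was 2.44-fold in WT60, where it passed the rule, 1.21-fold in WT30 and 0.516-fold in KO60.

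Markers of other cells were measured in the same samples. The 12 macrophage genes had a median of 1.03-fold in KO30 and a range of 0.662-fold to 1.66-fold, with 0 past the rule in any comparison. The 8 mast cell genes and the 12 erythroid and lymphoid precursor genes also had 0 past the rule in any comparison. Of the 10 bone and cartilage genes, 1 was down-regulated in WT30 and in KO30, Col10a1 of hypertrophic cartilage, at 0.392-fold and 0.322-fold. Ibsp, of bone matrix, was 0.333-fold in KO30 without passing the rule, and the part of bone and cartilage in the neutrophil values was not tested. In KO30 the 10 palm skin genes were all below 1-fold, with a median of 0.607-fold and 2 past the rule, Krt1 at 0.455-fold and Krt10 at 0.365-fold, while their median was 1.16-fold in KO60. The comparison with the most neutrophil genes up-regulated was thus also the one in which structural genes of the palm epidermis were lower, and the part of a different make-up of the skin pieces was not tested.

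**Figure D5:**
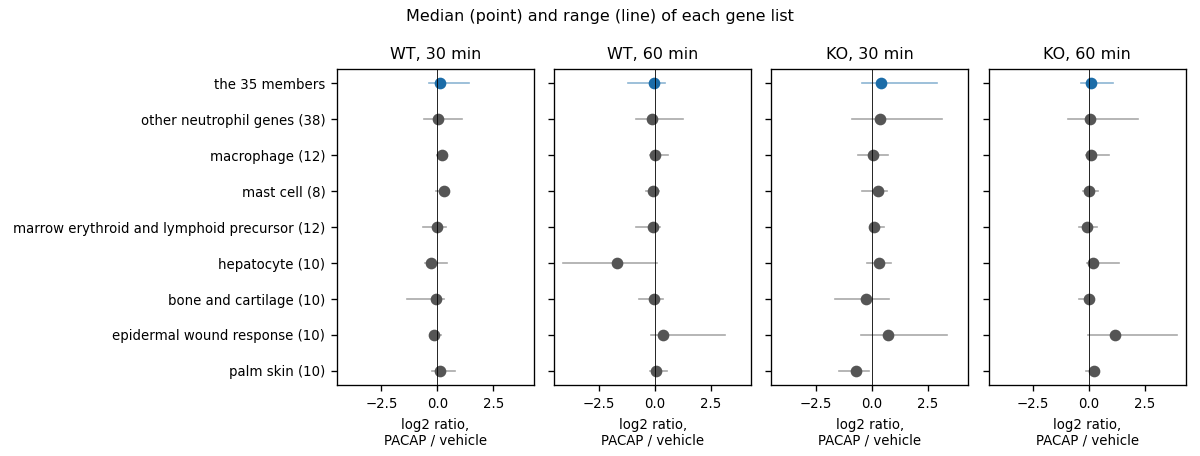
Log2 ratio of PACAP over vehicle (x axis) of the 35 genes and of 8 other gene lists (y axis, number of genes in brackets) in the 4 comparisons. Points are medians over the genes of a list and lines run from its lowest to its highest gene. In KO30 the 35 genes had a median of 1.34-fold and the palm skin genes of 0.607-fold, and in WT60 the hepatocyte genes had a median of 0.316-fold.

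Several of the genes are neighbours in the genome, which the choice of the genes had not used. With less than 100 kb between their probes on mm9 there were 5 pairs. Both genes of the pairs Clec4d and Clec4e, 8.03 kb apart, and Fpr1 and Fpr2, 16.9 kb apart, were up-regulated in KO30. In the pairs Trem1 and Trem3, 12.1 kb apart, and Fcgr3 and Fcgr4, 24.3 kb apart, only the second gene was, and in Elane and Prtn3, 6.22 kb apart, neither was. The genes of a pair belong to the same family, and whether a probe also binds the RNA of its relative was not tested.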

How the data were processed

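RNA of forepaw skin was measured on Agilent two-colour arrays, of which the authors deposited the scanner output and a table of log10 ratios. Feature Extraction (version 11.0.1.1 in the submitters' notes, 12.0.3.1 in the file headers) had subtracted background and normalised the dyes within each array. The deposited log10 ratio is red over green, set to 0 for 13.4% to 25.0% of spots per array, and the deposited p-value is that of 1 spot on 1 array. The deposited intensity columns are mean spot, local background and processed signals. Ratios were turned to PACAP over vehicle by the dyes in the labels and averaged over the dye swap. Replicate numbers mark dye orientation. Outlier spots were left out, 198 to 342 per array, and 0 were saturated. Levels are log2 intensities after normexp (offset 50), loess and Aquantile, and fits used limma 3.58.1 in R 4.3.3 with Benjamini-Hochberg adjustment over 30350 probes well above background in 1 channel or more on every array. P-values measure the spread between these few samples only.

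The 35 genes and all lists were chosen with earlier results of these data known. Full values are given for genes past the rule. For the precursor granule and oxidase genes, levels are given in full, except Ltf and Ngp by range, and most ratios by range. Others are given by range. On simulated shifts of 200 probes by 3 on the log2 scale, the fit of the mean recovered 194 with 12 false calls, that of KO minus WT 153 with 2, the level fit 200 with 59, and the level fit on pair means 196 with 4. Promoters are from RefSeq, and Hp, Itgb2, Mmp9, Ncf4, Selplg and Trem3 were not matched in the promoter set used. Alternatives were another background correction, median centring, no filter on dim probes, no p filter, a fold of 1.5, leaving out arrays or samples, time as a covariate, also with normexp, and the dye orientation as a block. The number of arrays limits the precision.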

Additional observations from a re-analysis of the deposited data

Results flagged for a closer look

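Hp had a ratio above 1-fold in both KO comparisons and below 1-fold in both WT comparisons, and the mean of KO was 1.27 above that of WT on the log2 scale. The value in WT30 is near 0, at -0.016 on the log2 scale, and turned to 0.0095 after normexp and loess and to 0.012 after median centring. Opposite directions are no test of the difference, and limma gave it an adjusted p of 0.84.

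With time as a covariate, the ratio differed between KO and WT past the adjusted threshold of limma for Fpr2, by 1.88 on the log2 scale, and for Clec4d, by 1.78. After normexp and loess these were 0.64 and 1.56 and neither passed, with an adjusted p of 1.0 from limma for both. Genotype and slide cannot be told apart in these differences, and their SE rests largely on the spread that limma shares over all probes.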

How the results depend on the processing

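No called result reversed its direction under an alternative. The counts of genes past a changed rule have no share of all probes beside them, which was given for the unchanged rule only. Whether these counts changed more or less than those of all probes was not tested. In KO30 the 9 up-regulated genes became 3 after normexp and loess, 10 without the p filter, 12 at a fold of 1.5, and 8 to 10 with 1 array left out. In KO60 the 1 gene became 0 after normexp and loess, 2 without the p filter, 3 at a fold of 1.5, and 1 to 2 with 1 array left out. In WT30 the 0 genes became 2 without the p filter, both up, and 0 to 1 with 1 array left out. In WT60 the 0 genes became 2 without the p filter, Fpr2 and Trem3, and 1 at a fold of 1.5, Clec4d, all of them down, and 0 to 2 with 1 array left out, 1 up and 1 down. The median log2 ratio of 0.43 in KO30 became 0.33 after normexp and loess, 0.46 after median centring and 0.50 with either array left out. With 1 array left out it was 0.10 to 0.18 in WT30, -0.082 to -0.034 in WT60 and 0.091 to 0.15 in KO60, where normexp and loess gave 0.039. The cause was not tested.

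Over all probes, limma's 0 calls for the mean became 0 to 1 with 1 comparison left out, and its 0 calls for KO minus WT became 17 with time as a covariate, 0 with that covariate after normexp and loess, and 0 to 170 with 1 comparison left out, 170 without WT30 and 83 without WT60. The 1276 calls for the level of KO against WT became 3110 with no random block, 2536 with processed signals, 2305 with no filter on dim probes, 0 in vehicle samples only, 0 with pair means, and 0 to 2995 with 1 pair left out. The 2833 calls for time became 4873, with no random block, 0 in vehicle samples only, 0 with pair means, and 0 to 11062 with 1 pair left out, the highest without KO30 in both cases. Those fits with 1 pair left out also lose the random block, whose correlation is then 0 against 0.18, so their counts do not show the effect of the pair alone. With the dye orientation as a replicate block, 0 probes passed for the mean and 0 for KO minus WT. Same-numbered arrays share dye orientation and not animals, and their deviations correlated at 0.703 to 0.847. Of the values of single genes, 64 moved, 28 gained and 15 lost their call, and 1957 did neither. Of the 35 genes, Ngp, Ltf, Mmp8, Cd177, Trem3, Mmp9, Padi4 and Fpr2 were above background in the fewest channels, 7 to 12 of 16.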
